A study of Mus musculus with 30 samples.

Results

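J774A.1 is an established mouse line of macrophage-like cells. Of the 30 libraries of the series, 6 are compared here: 3 untreated libraries of the wild-type clone WT2 and 3 untreated libraries of the wild-type clone WT3. The libraries were chosen by clone and treatment as labelled. Both clones carry the genotype "wildtype" and were, per the study's methods, isolated by limiting dilution as unedited controls for deletion clones of the same line. Each group is therefore 1 clone, and a difference between the groups is a difference between a pair of clones. The labels name 3 libraries per clone and treatment but do not state that they came from separate cultures, so p-values measure only the spread between these libraries, which may be technical. Beside them stand 6 libraries of the same clones given 100 ng/mL mouse interferon gamma (IFNG) for 4 h, and 3 untreated libraries of a further wild-type clone, WT1, shown as context. Library columns carry clone codes, and their clone was read from the deposited tables named for WT2 and WT3 that hold the same columns. Libraries of a clone are called a, b and c in the order of their columns, which carry no replicate number.

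Macrophages take up and degrade dead cells, microbes and lipoproteins, and they sense pathogens through surface and endosomal receptors. They express a set of interferon-stimulated genes, induced through STAT and IRF transcription factors, at a low level at rest and at a high level after interferon. A clone starts from a single cell, and clones of a line can differ in expression without any deliberate edit. In bulk libraries, fewer cells with a transcript and less transcript per cell cannot be told apart.

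The 6 libraries held between 15566122 and 27490220 counted fragments, and 23551 of the 54146 listed genes had a count in at least 1 of them. Macrophage genes were abundant in both clones. Csf1r, the receptor for the macrophage growth factor CSF1, had 1195, 1137 and 1119 CPM in the WT2 libraries and 1291, 1205 and 1239 CPM in the WT3 libraries. CPM are the counts of a gene scaled to a common library total after TMM normalisation. Cd68, a lysosomal glycoprotein, had 619, 612 and 618 CPM in the WT2 libraries and 638, 615 and 659 CPM in the WT3 libraries. Spi1, which encodes the myeloid transcription factor PU.1, had 237, 221 and 232 CPM in the WT2 libraries and 243, 229.9 and 242 CPM in the WT3 libraries. The libraries of both clones overlapped in Cd68 and Spi1, whereas Csf1r differed slightly (log2FC −0.10 ± 0.032 (SE), adjusted p = 0.0326, edgeR), a call that was lost without WT2 library b, WT2 library c or WT3 library a. Of 73 markers of 8 other lineages, 38 had no count in any of the 6 libraries, among them Cd3e, Ms4a1, Ly6g, Mpo, Flt3 and all 8 epithelial markers. A count of 0 limits a transcript only to the depth of these libraries. Reaching 1 CPM were 11 markers: Lck, Cd5, Blnk, S100a8, Cebpe, Csf3r, Zbtb46, Batf3, Pdgfra, Cdh5 and Vwf. The summed level of the T cell markers was 7.23 to 8.92 CPM in WT2 and 4.57 to 4.71 CPM in WT3, and that of the B cell markers was 56.4 to 63.6 CPM in WT2 and 38.04 to 39.12 CPM in WT3. That of the granulocyte markers was 46.6 to 48.5 CPM in WT2 and 40.8 to 42.4 CPM in WT3. Cd5 (log2FC 1.33) and Blnk (log2FC 0.65) carried the T and B cell differences, while the defining genes Cd3e and Ms4a1 were at 0. The granulocyte genes Cebpe (log2FC 0.18) and Csf3r (log2FC 0.22) were called higher in WT2, each call being lost with DESeq2 and without any 1 of 4 libraries (WT2 a or b, WT3 a or b for Cebpe, WT2 b or c, WT3 a or c for Csf3r), and Ly6g and Mpo were at 0. The part of other cells in the results was not tested.

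WT2 and WT3 were the most alike of the 3 wild-type clones. Pearson correlations of log2(CPM + 0.5) over 10113 genes were 0.9971 to 0.9982 within a clone and 0.9933 to 0.9947 between WT2 and WT3. Mean levels differed by a doubling or more in 78 of 12338 genes (0.632%) between WT2 and WT3, compared with 510 of 12538 (4.07%) between WT1 and WT2 and 543 of 12536 (4.33%) between WT1 and WT3. The median absolute log2 difference was 0.0865 between WT2 and WT3, 0.201 between WT1 and WT2 and 0.199 between WT1 and WT3.

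A comparison of the 6 libraries with the edgeR quasi-likelihood test asked which genes separate a pair of unedited clones at rest. A gene was called when its Benjamini-Hochberg adjusted p was below 0.05, and every log2 fold change (log2FC) is WT2 minus WT3, so that positive values are higher in WT2. Of 13310 genes tested, 2290 were called (17.2%), 1200 of them higher in WT2 (9.02%) and 1090 higher in WT3 (8.19%). The differences were mostly small. The median absolute log2FC of the called genes was 0.20, and 1903 of them (83.1%) differed by less than 0.5 on the log2 scale. Only 158 genes (1.19%) were called with an absolute log2FC of 1 or more, 81 higher in WT2 and 77 higher in WT3. Libraries of a clone scattered little, with a biological coefficient of variation of 0.0312. Most genes named below were chosen because they were called in these same libraries. A lack of overlap between the clones in such genes follows largely from that choice and adds no separate support. The share of all genes tested without overlap was not counted. Leaving out the deepest library of either clone lowered the number of calls by over 1.5 times, to 1339 without WT2 library b and 1340 without WT3 library a. The plot of level against log2FC shows that differences above 4 on the log2 scale occurred among genes with a mean level of about 5 CPM or less.

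**Figure D1:**
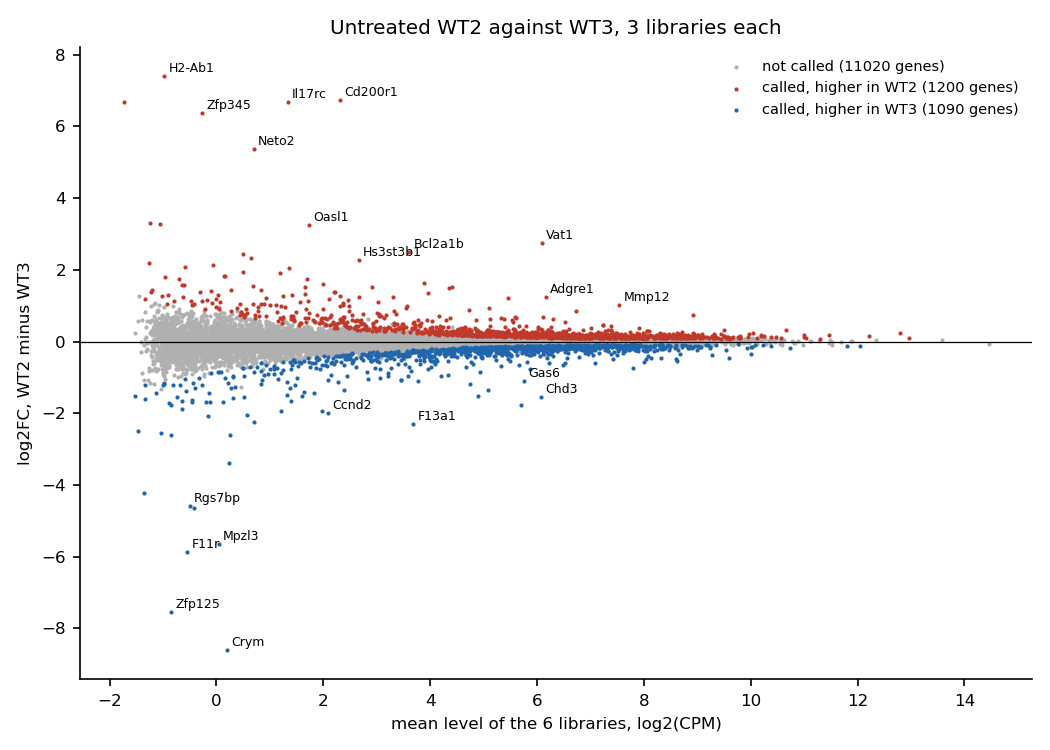
Each point is 1 of the 13310 genes tested, with the mean log2(CPM) of the 6 untreated libraries on the x axis and the log2FC (WT2 minus WT3) on the y axis. Red points were called higher in WT2 (1200 genes) and blue points higher in WT3 (1090 genes), and most called genes lie close to 0.

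A few genes were read almost entirely in 1 of the clones. Crym (chr7:120186380-120202111, mm10), which encodes the thyroid hormone-binding protein mu-crystallin, had no count in the 3 WT2 libraries and 2.32, 2.29 and 2.28 CPM in the WT3 libraries, a total of 0 against 159 counts. With a floor of 3 counts over the WT2 group, Crym was at least 45.1-fold higher in WT3. It was also without a count in the WT2 libraries given IFNG, against 117 counts in WT3. Mpzl3, a myelin protein zero-like adhesion protein, had 2 counts in WT2 and 140 in WT3, a ratio of 59.6 (exact 95% counting interval 16.2 to 497). F11r, which encodes the junctional adhesion molecule JAM-A, had 1 count in WT2 and 92 in WT3, a ratio of 78.3 (13.7 to 3127). Rgs7bp, a membrane anchor of regulators of G-protein signalling, had 3 counts in WT2 and 94 in WT3, a ratio of 26.7 (8.85 to 132). These intervals cover counting error only. Zfp125, a zinc finger gene, had no count in WT2 and 76 in WT3, at least 21.6-fold higher in WT3, and shares an exon with 3110053B16Rik, so that its fragments cannot be assigned to it alone. DESeq2 did not call F11r, Rgs7bp or Zfp125. By default it gives no adjusted p to genes with few counts, and such genes were counted here as not called.

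The reverse held for H2-Ab1, Il17rc and Zfp345. H2-Ab1 (chr17:34263209-34269418, mm10), the beta chain of the MHC class II molecule I-A, had 1.30, 0.673 and 1.07 CPM in the WT2 libraries and no count in any WT3 or WT1 library, at least 22.7-fold higher in WT2 with 58 against 0 counts. The same gene had 60 counts in WT2 and 0 in WT3 after IFNG, a level near 1 CPM in both treatments. DESeq2 did not call it in the untreated libraries, where the same rule for few counts applies. Il17rc, a subunit of the interleukin 17 receptor, had 5.48, 4.37 and 5.23 CPM in the WT2 libraries and 0.0714, 0.0432 and 0 CPM in the WT3 libraries, 292 counts against 3 and a ratio of 114 (38.7 to 558). WT1 had 5.63 ± 0.571 CPM (SD, n = 3) of Il17rc, close to WT2, so that WT3 was the clone that stood apart. Zfp345, a zinc finger gene, had 99 counts in WT2 and 1 in WT3, a ratio of 116 (20.4 to 4638). A further gene met the same rule, Pfpl, but 66 of its 68 WT2 counts lay in library c alone, and it did not pass the filter on low counts.

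**Figure D2:**
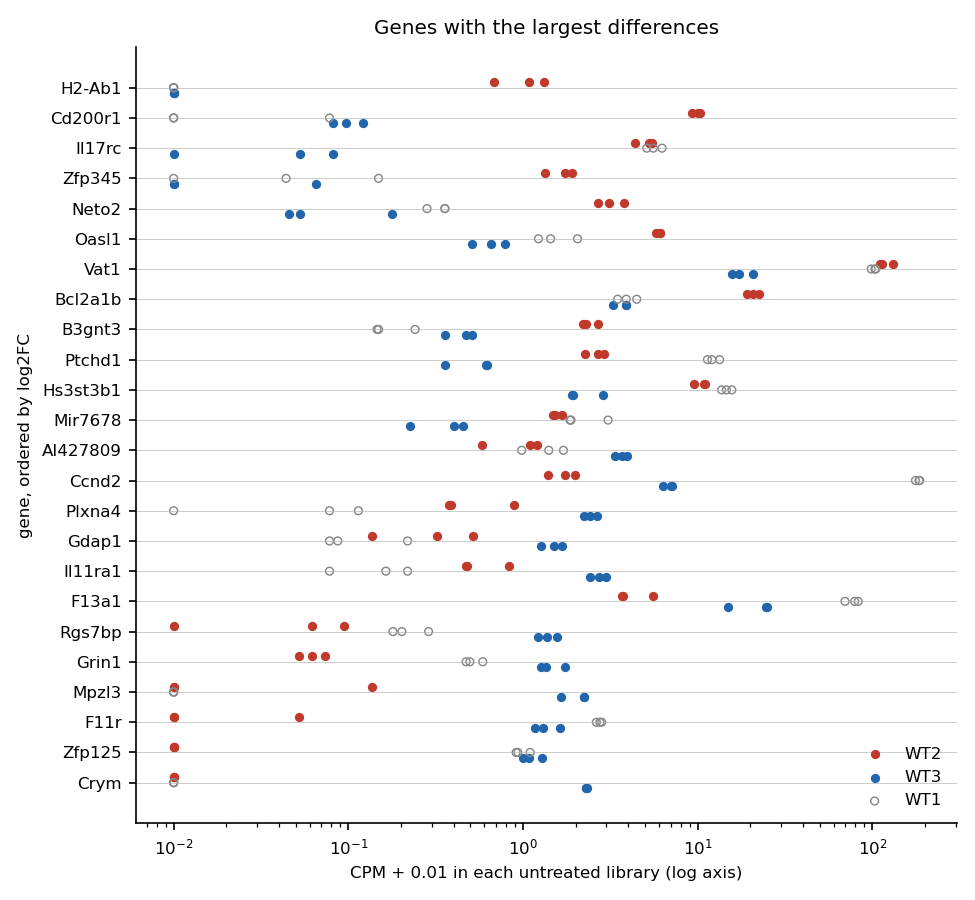
CPM + 0.01 in each untreated library, on a log axis, for the 12 named genes with the largest log2FC in each direction. Filled red points are the 3 WT2 libraries, filled blue points the 3 WT3 libraries and open points the 3 WT1 libraries. No WT2 library overlaps a WT3 library in any of these genes, which were chosen for their large difference between the same libraries. WT1 lies with WT2 in some genes, with WT3 in others and beyond both in others such as Ccnd2.

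Genes higher in WT2 included those of receptors and membrane proteins. Cd200r1 (chr16:44765736-44794978, mm10), the inhibitory receptor for CD200 on myeloid cells, had 9.96, 10.3 and 9.27 CPM in the WT2 libraries and 0.0714, 0.0864 and 0.111 CPM in the WT3 libraries (log2FC 6.74 ± 0.23 (SE), adjusted p = 1.23e-12). It was nearly absent from WT3 and from WT1, which had 0.0227 ± 0.0393 CPM (SD, n = 3). Neto2, an auxiliary subunit of kainate receptors, had 2.66, 3.78 and 3.09 CPM in the WT2 libraries and 0.0357, 0.0432 and 0.167 CPM in the WT3 libraries (log2FC 5.37 ± 0.38 (SE), adjusted p = 3.49e-08). Vat1 (chr11:101458745-101466230, mm10), which encodes a vesicle amine transport protein, was the most abundant of the 12 with 114, 110.3 and 131 CPM in the WT2 libraries and 17.2, 15.7 and 20.8 CPM in the WT3 libraries (log2FC 2.74 ± 0.075 (SE), adjusted p = 5.95e-14). The Vat1 level of WT1 was 102 ± 3.20 CPM (SD, n = 3), so that WT3 was the low clone for this gene. Adgre1 (chr17:57358686-57483529, mm10), which encodes the macrophage surface antigen F4/80, had 108, 98.96 and 95.6 CPM in the WT2 libraries and 46.3, 41.2 and 39.9 CPM in the WT3 libraries (log2FC 1.25 ± 0.055 (SE), adjusted p = 5.36e-11), and WT1 had only 10.4 ± 1.34 CPM (SD, n = 3). The 3 clones thus fell in the order WT2, WT3, WT1 in Adgre1, with no overlap between their libraries.

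Further genes higher in WT2 included a protease, a semaphorin and inhibitors of apoptosis. Mmp12, the macrophage elastase, had 223, 206 and 317 CPM in the WT2 libraries and 110.1, 99.02 and 164 CPM in the WT3 libraries (log2FC 1.01 ± 0.15 (SE), adjusted p = 1.29e-04). Sema4d, a semaphorin, had 138, 127 and 142 CPM in the WT2 libraries and 73.5, 71.2 and 84.5 CPM in the WT3 libraries (log2FC 0.84 ± 0.052 (SE), adjusted p = 5.34e-09). All WT2 libraries were above all WT3 libraries in both genes. Bcl2a1b, an anti-apoptotic member of the BCL2 family, had 20.7, 19.04 and 22.3 CPM in the WT2 libraries and 3.86, 3.28 and 3.90 CPM in the WT3 libraries (log2FC 2.49 ± 0.10 (SE), adjusted p = 1.18e-11). Its paralogs Bcl2a1a and Bcl2a1d differed in the same direction (log2FC 2.07 and 1.38), but these genes are near-identical copies and Bcl2a1b shares an exon with Gm29094, so their separate values are uncertain. Hs3st3b1, a heparan sulfate sulfotransferase, was higher in WT2 with a log2FC of 2.27, and so were B3gnt3, a glycosyltransferase (log2FC 2.45), and Ptchd1 (log2FC 2.32). Mir7678 (log2FC 2.15) shares an exon with Slpi, the secretory leukocyte protease inhibitor, which itself differed by 1.61, so its fragments cannot be told from those of Slpi.

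Genes higher in WT3 at an appreciable level included a chromatin remodeller, a coagulation factor and the mannose receptor. Chd3 (chr11:69343273-69369406, mm10), an ATP-dependent remodeller of the NuRD complex, had 35.6, 33.1 and 34.4 CPM in the WT2 libraries and 99.97, 97.8 and 105 CPM in the WT3 libraries (log2FC −1.54 ± 0.042 (SE), adjusted p = 5.95e-14). WT1 had 108 ± 4.64 CPM (SD, n = 3) of Chd3, so that WT2 was the low clone. F13a1, the A subunit of coagulation factor XIII, had 5.53, 3.74 and 3.66 CPM in the WT2 libraries and 24.9, 14.9 and 24.6 CPM in the WT3 libraries (log2FC −2.31 ± 0.19 (SE), adjusted p = 1.66e-07). Mrc1, the mannose receptor CD206, had 20.2, 18.8 and 17.6 CPM in the WT2 libraries and 49.3, 48.2 and 48.3 CPM in the WT3 libraries (log2FC −1.35 ± 0.053 (SE), adjusted p = 1.15e-11). All 3 WT3 libraries were above all 3 WT2 libraries in these genes.

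Gas6, the bridging ligand of the TAM receptors for dead cells, had 38.5, 33.5 and 30.1 CPM in the WT2 libraries and 74.8, 72.7 and 74.2 CPM in the WT3 libraries (log2FC −1.10 ± 0.059 (SE), adjusted p = 6.69e-10). Tgfbi, a matrix protein induced by TGF-beta, had 176, 171 and 149 CPM in the WT2 libraries and 295, 278 and 269 CPM in the WT3 libraries (log2FC −0.75 ± 0.049 (SE), adjusted p = 1.15e-08). Clec10a and its close relative Mgl2, both galactose-type lectins, were higher in WT3 (log2FC −0.67 and −1.20). Diaph2, a formin that nucleates actin filaments, had 44.8, 41.1 and 42.4 CPM in the WT2 libraries and 73.3, 73.95 and 74.2 CPM in the WT3 libraries (log2FC −0.78 ± 0.041 (SE), adjusted p = 6.69e-10), whereas WT1 had 3.499 ± 0.272 CPM (SD, n = 3). Ccnd2, which encodes cyclin D2, had 1.98, 1.72 and 1.39 CPM in the WT2 libraries and 7.04, 7.13 and 6.35 CPM in the WT3 libraries (log2FC −1.99 ± 0.15 (SE), adjusted p = 5.69e-08). Both clones were far below WT1, which had 183 ± 5.45 CPM (SD, n = 3). At levels of a few CPM or less, genes also higher in WT3 were Grin1, a glutamate receptor subunit (log2FC −4.63), Il11ra1, the interleukin 11 receptor (log2FC −2.25), Gdap1, a mitochondrial outer membrane protein (log2FC −2.08), Plxna4, a semaphorin receptor (log2FC −2.05), and AI427809 (log2FC −1.93). DESeq2 did not call Grin1, which may have been left without an adjusted p for its few counts. Mid1, an X-linked ubiquitin ligase that binds microtubules, had 17.6, 14.8 and 13.5 CPM in the WT2 libraries and 44.4, 42.6 and 45.01 CPM in the WT3 libraries (log2FC −1.51 ± 0.068 (SE), adjusted p = 8.92e-11).

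Dicer1, the ribonuclease that makes mature microRNAs, is the host of the regulatory region deleted in other clones of the series and was examined here only as a control. Its level was 125, 129.9 and 129 CPM in the WT2 libraries and 125, 126 and 121 CPM in the WT3 libraries. The libraries of the clones overlapped, and Dicer1 was not called (log2FC 0.056 ± 0.033 (SE), adjusted p = 0.283, edgeR). Among 18 tested genes of microRNA processing and Argonaute proteins, 3 were called higher in WT2 and 1 higher in WT3. Ago4, an Argonaute protein, was the largest of them with 6.10, 6.35 and 7.31 CPM in the WT2 libraries and 3.25, 3.11 and 3.73 CPM in the WT3 libraries (log2FC 0.98). Drosha, the nuclear microRNA processing enzyme, was higher in WT2 by 0.20, and Ago3, a further Argonaute protein, was the gene higher in WT3 (log2FC −0.23), a call lost without WT3 library a and after correction for exon length.

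The lists of related genes differed from each other in the direction of their calls. Over all 13310 genes tested, 9.02% were called higher in WT2, 8.19% higher in WT3, and the median log2FC was 0.00, and each list is read beside these values. The bars of calls by gene list show interferon-stimulated, ribosomal and oxidative phosphorylation genes called in WT2 alone, and complement, scavenger receptor and cholesterol genes called mostly in WT3.

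**Figure D3:**
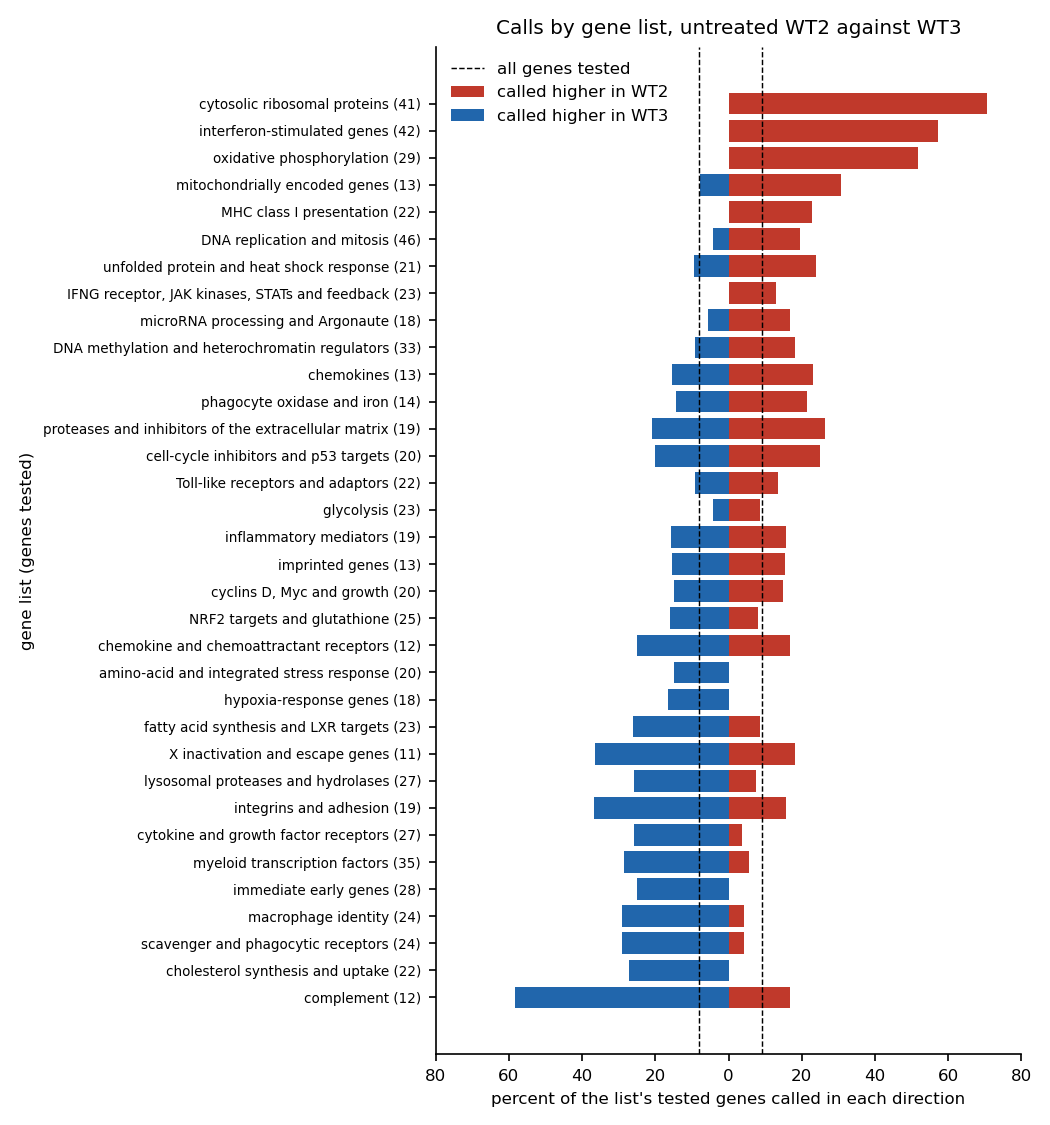
For each list with at least 10 tested genes, the percent of tested members called higher in WT3 (blue, to the left) and higher in WT2 (red, to the right), with the number tested in parentheses. Dashed lines mark the same percents over all genes tested (8.19% and 9.02%). The largest share toward WT2 is that of the cytosolic ribosomal proteins (29 of 41) and the largest toward WT3 that of complement (7 of 12).

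Interferon-stimulated genes were higher in WT2. Of 42 tested members of the list, 24 were called higher in WT2 and none higher in WT3, with a median log2FC of 0.31. The 18 others were not called. All 3 WT2 libraries lay above all 3 WT3 libraries in 29 of the 42 genes, and the reverse occurred in none. How often the libraries separate in this way over all genes tested was not counted, so these numbers have no background beside them. The number called was 20 with DESeq2 and 19 to 27 with any 1 library left out, and it was 24 after correction for exon length. The summed level of the list was 1069 to 1095 CPM in the WT2 libraries and 914 to 963 CPM in the WT3 libraries.

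Oasl1, a member of the oligoadenylate synthetase-like family, showed the largest difference with 5.79, 6.10 and 6.05 CPM in the WT2 libraries and 0.5001, 0.648 and 0.780 CPM in the WT3 libraries (log2FC 3.26 ± 0.18 (SE), adjusted p = 1.53e-09). WT1 had 1.56 ± 0.428 CPM (SD, n = 3) of Oasl1, between the other clones. Ifit1, which binds foreign RNA, had 1.30, 1.35 and 1.51 CPM in the WT2 libraries and 0.571, 0.648 and 0.613 CPM in the WT3 libraries (log2FC 1.18 ± 0.25 (SE), adjusted p = 0.00385). Ifit3, its partner, had 0.574, 0.757 and 0.945 CPM in the WT2 libraries and 0.321, 0.259 and 0.334 CPM in the WT3 libraries (log2FC 1.29 ± 0.36 (SE), adjusted p = 0.0181), a low level at which the call was lost with DESeq2 and without any 1 of 4 libraries (WT2 b or c, WT3 a or b). Irf7, the transcription factor that amplifies interferon production, had 10.7, 10.2 and 9.71 CPM in the WT2 libraries and 6.54, 5.36 and 5.96 CPM in the WT3 libraries (log2FC 0.79 ± 0.10 (SE), adjusted p = 3.63e-05). Usp18, an isopeptidase that removes ISG15 and dampens interferon receptor signalling, had 5.43, 5.38 and 5.92 CPM in the WT2 libraries and 3.68, 3.24 and 2.90 CPM in the WT3 libraries (log2FC 0.75 ± 0.13 (SE), adjusted p = 7.51e-04). Ifi44 had 22.95, 22.6 and 21.7 CPM in the WT2 libraries and 13.3, 13.7 and 14.1 CPM in the WT3 libraries (log2FC 0.72 ± 0.064 (SE), adjusted p = 5.70e-07). WT2 was the higher clone in every library of these 6 genes.

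Cytosolic sensors of viral RNA were among the smaller differences, namely Ddx58, which encodes RIG-I (log2FC 0.38), Ifih1, which encodes MDA5 (log2FC 0.33), and Dhx58, which encodes LGP2 (log2FC 0.26). The oligoadenylate synthetases Oas1a, Oas1g, Oas2 and Oas3 were called with log2FC values of 0.33, 0.46, 0.34 and 0.34, although Oas1a and Oas1g are close paralogs whose fragments can be split between them. Cmpk2, a mitochondrial nucleotide kinase, differed by 0.59. The components of the signalling machinery itself differed less. Irf9, the DNA-binding partner of the STATs, was called (log2FC 0.22), a call lost with DESeq2 and without WT3 library a, and Stat2 (log2FC 0.079, adjusted p = 0.425) was not. Of 23 tested genes of the interferon gamma receptor, its kinases, the STATs and their feedback, Usp18, Irf9 and Ptpn2 were called higher in WT2 and none higher in WT3. The receptor genes Ifngr1 and Ifngr2 had log2FC values of −0.013 and 0.058 and were not called. Among 22 tested genes of MHC class I presentation, 5 were called higher in WT2 and none higher in WT3, at a list median of 0.02. The 5 were H2-T22 (log2FC 0.27), a class I-like molecule, B2m, the class I light chain (log2FC 0.12), and Psmb10, Psme1 and Psme2 of the proteasome (log2FC 0.20, 0.18 and 0.23). The libraries of the clones overlapped in Psmb10, whose call was lost in 9 of 14 alternatives, among them DESeq2 and the fits without WT2 library a or b or WT3 library a or b. After correction for exon length, 3 of the list were called.

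The promoters of several of these genes are shown because interferon-stimulated genes are known to be driven by a sequence that binds the ISGF3 complex and IRF factors. Each window is RefSeq sequence of GRCm38.p6, read 5′ to 3′ on the strand of the gene, from 250 bases before to 50 bases after the annotated start. Capitals mark matches of GAAANNGAAA, searched on both strands (TTTCNNTTTC on the other), and overlapping matches run together. Ifit3 (chr19:34583279-34583578, plus strand) and Ifit1 (chr19:34640639-34640938, plus strand) hold 2 matches each. Oas1a (chr5:120907476-120907775, minus strand) and Gbp3, an interferon-induced guanylate-binding protein (chr3:142559794-142560093, plus strand), hold 2 overlapping matches each. A second Gbp3 window in the RefSeq table (chr3:142560106-142560405), from a start further downstream, holds none. Oasl1 (chr5:114922990-114923289, plus strand), the gene with the largest difference of the list, holds none in this window.
Ifit3: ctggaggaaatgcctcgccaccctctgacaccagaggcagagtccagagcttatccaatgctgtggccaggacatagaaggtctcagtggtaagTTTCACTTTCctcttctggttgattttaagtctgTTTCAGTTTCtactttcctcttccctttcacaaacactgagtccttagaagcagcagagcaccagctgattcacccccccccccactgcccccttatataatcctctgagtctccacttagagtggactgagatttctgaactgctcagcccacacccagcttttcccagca
Ifit1: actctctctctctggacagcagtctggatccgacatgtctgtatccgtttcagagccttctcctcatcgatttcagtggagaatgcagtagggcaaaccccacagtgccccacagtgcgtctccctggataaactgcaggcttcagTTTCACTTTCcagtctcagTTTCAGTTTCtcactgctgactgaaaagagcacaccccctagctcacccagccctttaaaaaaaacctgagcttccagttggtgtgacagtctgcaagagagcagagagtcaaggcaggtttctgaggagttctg
Oas1a: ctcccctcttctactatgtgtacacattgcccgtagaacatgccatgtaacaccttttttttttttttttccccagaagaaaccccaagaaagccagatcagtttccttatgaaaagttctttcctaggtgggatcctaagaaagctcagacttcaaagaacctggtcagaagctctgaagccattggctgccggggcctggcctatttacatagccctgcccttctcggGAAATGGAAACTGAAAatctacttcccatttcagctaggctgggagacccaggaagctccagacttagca
Gbp3: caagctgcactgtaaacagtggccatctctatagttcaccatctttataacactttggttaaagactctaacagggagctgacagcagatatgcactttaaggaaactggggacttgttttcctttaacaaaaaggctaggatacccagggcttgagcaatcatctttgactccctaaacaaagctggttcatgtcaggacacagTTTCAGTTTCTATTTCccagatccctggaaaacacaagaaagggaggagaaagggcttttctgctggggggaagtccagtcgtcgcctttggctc
Oasl1: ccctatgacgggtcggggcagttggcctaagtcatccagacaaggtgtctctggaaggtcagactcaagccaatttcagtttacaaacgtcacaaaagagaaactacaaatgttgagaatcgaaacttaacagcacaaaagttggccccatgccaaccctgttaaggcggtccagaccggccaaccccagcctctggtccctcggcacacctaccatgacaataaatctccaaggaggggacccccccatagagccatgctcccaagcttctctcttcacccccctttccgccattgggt

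Of 32851 promoter windows of this length in the RefSeq table, 1131 held the motif (3.44%), as did 351 of the 9078 tested genes with a window (3.87%). Among interferon-stimulated genes tested, 20 of the 32 with a window held it (62.5%), a gene with several windows being counted when any of them did. The share was 11 of 19 (57.9%) for those called higher in WT2 and 9 of 13 (69.2%) for those not called, so the share was no higher among the members that were called. A match is a match of letters and was not tested as a binding site.

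Genes of the translation machinery and of respiration were also higher in WT2, by small amounts. Of 41 tested cytosolic ribosomal protein genes, 29 were called higher in WT2 and none higher in WT3, with a median log2FC of 0.11. Rpl26, of the large subunit, was the largest with 102, 121 and 100.3 CPM in the WT2 libraries and 82.5, 81.6 and 91.9 CPM in the WT3 libraries (log2FC 0.36 ± 0.059 (SE), adjusted p = 5.10e-04). Genes of this kind have many near-identical pseudogene copies, which can take part of their fragments. Of 29 tested genes of oxidative phosphorylation, 15 were called higher in WT2 and none higher in WT3, with a median of 0.088. Cycs, which encodes cytochrome c, had 201, 214 and 197 CPM in the WT2 libraries and 173, 180.3 and 183 CPM in the WT3 libraries (log2FC 0.20 ± 0.036 (SE), adjusted p = 7.76e-04).

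Differences also moved with exon length. Over all genes tested, the Spearman correlation of log2FC with exon length was −0.15. Among the 3329 genes with the shortest exons (up to 2103 bases), 352 were called higher in WT2 and 111 higher in WT3, and among the 3326 with the longest (6216 bases or more) 220 were called higher in WT2 and 482 higher in WT3. After offsets that removed each library's trend over length, an alternative added after the data were seen, 18 ribosomal protein genes and 10 oxidative phosphorylation genes were called higher in WT2 and none of either higher in WT3. Leaving out 1 library left 19 to 29 and 5 to 13 calls. DESeq2 called 28 and 9. The oxidative phosphorylation count thus fell by over 1.5 times with DESeq2, and to 5 in its lowest case of a library left out. Over all genes tested, the calls higher in WT2 also fell, from 1200 to 761 with DESeq2 and to 680 without WT3 library a. They were 1138 with the length offsets.

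Genes of the cell cycle gave more calls toward WT2. Of 46 tested genes of DNA replication and mitosis, 9 were called higher in WT2 and 2 higher in WT3, with a median of 0.04, and 5 to 9 were called toward WT2 with 1 library left out. Those higher in WT2 included Rrm2, a subunit of ribonucleotide reductase (log2FC 0.29), Gins1, of the replicative helicase (log2FC 0.27), and Ccne1, which encodes cyclin E1 (log2FC 0.21, not called without WT2 library b). The mitotic genes Cenpf (log2FC −0.20) and Nusap1 (log2FC −0.13) were higher in WT3. Trp53, which encodes the tumour suppressor p53, had 198, 191 and 186 CPM in the WT2 libraries and 145, 140.3 and 141 CPM in the WT3 libraries (log2FC 0.44 ± 0.032 (SE), adjusted p = 5.35e-08). Cdkn1c, an imprinted inhibitor of cyclin-dependent kinases, had 5.11, 5.13 and 5.42 CPM in the WT2 libraries and 3.0003, 2.85 and 2.40 CPM in the WT3 libraries (log2FC 0.91 ± 0.13 (SE), adjusted p = 1.73e-04). All WT2 libraries were above all WT3 libraries in both genes, while Mki67 (−0.087) and Top2a (0.0066), markers of cycling cells, were not called.

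Complement genes were mostly higher in WT3. Of 12 tested, 7 were called higher in WT3 and 2 higher in WT2, with a median log2FC of −0.10. C1qa had 331, 334 and 294 CPM in the WT2 libraries and 496, 457 and 458 CPM in the WT3 libraries (log2FC −0.55 ± 0.043 (SE), adjusted p = 1.21e-07). C1qc had 218, 208 and 194.8 CPM in the WT2 libraries and 326, 309 and 292 CPM in the WT3 libraries (log2FC −0.57 ± 0.042 (SE), adjusted p = 5.75e-08), and C1qb, the remaining chain of the C1q molecule that opens the classical pathway, differed by −0.49. C3, the central component, went the other way with 48.8, 41.9 and 56.98 CPM in the WT2 libraries and 30.3, 29.3 and 34.9 CPM in the WT3 libraries (log2FC 0.65 ± 0.084 (SE), adjusted p = 4.48e-05). No WT2 library overlapped a WT3 library in these genes, which were chosen as called in the same libraries.

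Scavenger and phagocytic receptors gave 7 calls higher in WT3 and 1 higher in WT2 among 24 tested, with a median of −0.037. Mrc1, Gas6 and Clec10a, described above, were the largest, and Stab1, a scavenger receptor (log2FC −0.45), and Lrp1, a receptor of lipoproteins and proteases (log2FC −0.18), were also called. The member higher in WT2 was Cd300lf, an inhibitory receptor (log2FC 0.48), whose call was lost without WT2 library b or without WT3 library b. Msr1, Marco, Trem2 and Mertk had log2FC values of 0.038, −0.088, −0.084 and 0.061 and were not called.

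Within the macrophage identity list, 7 of 24 genes were called higher in WT3 and 1, Adgre1, higher in WT2, with 4 to 9 toward WT3 when 1 library was left out. Cebpa, a transcription factor of myeloid differentiation, had 14.6, 13.4 and 11.4 CPM in the WT2 libraries and 20.1, 18.9 and 18.6 CPM in the WT3 libraries (log2FC −0.53 ± 0.080 (SE), adjusted p = 2.16e-04). Maf, which encodes c-MAF, had 279, 269 and 255 CPM in the WT2 libraries and 390.3, 375 and 356 CPM in the WT3 libraries (log2FC −0.47 ± 0.038 (SE), adjusted p = 1.48e-07). Both were higher in every WT3 library than in any WT2 library. Among 35 tested myeloid transcription factors, 10 were called higher in WT3 and 2 higher in WT2, with Mitf, a transcription factor of lysosomal genes (log2FC −0.31), and Runx3 (log2FC −0.46) among those higher in WT3. Of 27 lysosomal genes tested, 7 were called higher in WT3 and 2 higher in WT2, the largest being Gpnmb, a transmembrane glycoprotein (log2FC −0.94), and Ctsh, which encodes cathepsin H (log2FC −0.76).

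Immediate early genes, which respond within minutes to growth factors and stress, gave 7 calls higher in WT3 and none higher in WT2 among 28 tested, with a median of −0.17. Egr1, a zinc finger transcription factor, had 4.75, 3.78 and 2.65 CPM in the WT2 libraries and 10.6, 6.48 and 4.46 CPM in the WT3 libraries (log2FC −0.97 ± 0.24 (SE), adjusted p = 0.0107). Its libraries overlapped between the clones, and the call was lost with DESeq2, without WT2 library b and without WT3 library a. Zfp36, which encodes the mRNA-destabilising protein tristetraprolin, had 112, 97.1 and 71.04 CPM in the WT2 libraries and 156, 124 and 99.9 CPM in the WT3 libraries (log2FC −0.43 ± 0.13 (SE), adjusted p = 0.0289), again with overlap, and lost its call with DESeq2 and without WT2 library b, WT2 library c or WT3 library a. The libraries of each clone spread widely in both genes, and in each clone the level fell from library a to b to c. Whether libraries with the same letter share a batch was not tested. Ier3, a stress-induced survival gene, had 24.3, 20.6 and 22.2 CPM in the WT2 libraries and 29.8, 28.6 and 28.1 CPM in the WT3 libraries (log2FC −0.37 ± 0.062 (SE), adjusted p = 6.06e-04), without overlap. With DESeq2 the list had 4 calls toward WT3, and with 1 library left out 4 to 10.

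Genes of cholesterol synthesis and uptake gave 6 calls higher in WT3 and none higher in WT2 among 22 tested, with a median of −0.089, and 21 of the 22 values were negative. With 1 library left out, 3 to 7 were called toward WT3. Srebf2, the transcription factor that drives the pathway, had 497, 490.2 and 491 CPM in the WT2 libraries and 557, 541 and 564 CPM in the WT3 libraries (log2FC −0.16 ± 0.027 (SE), adjusted p = 6.17e-04). All WT3 libraries were above all WT2 libraries. Insig1, Mvd, Hmgcs1 and Lss were also called, with log2FC values between −0.16 and −0.13. The Lss call was lost without WT2 library a and after correction for exon length.

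Receptors and secreted mediators split between the clones. Of 27 tested cytokine and growth factor receptors, 7 were called higher in WT3 and 1 higher in WT2. Il21r, the interleukin 21 receptor, had 0.417, 0.462 and 0.693 CPM in the WT2 libraries and 1.89, 1.38 and 1.73 CPM in the WT3 libraries (log2FC −1.69 ± 0.28 (SE), adjusted p = 4.82e-04), and Il2rg, the common gamma chain with which it pairs, was the gene higher in WT2, with 7.67, 7.36 and 7.63 CPM in the WT2 libraries and 4.54, 5.10 and 6.02 CPM in the WT3 libraries (log2FC 0.56 ± 0.12 (SE), adjusted p = 0.00264). Il2rg shares an exon with Gm20489. Of 9 tested C-type lectins of the chromosome 6 cluster, 4 were called higher in WT2 and none higher in WT3. Clec4n, which encodes dectin-2, had 19.5, 18.6 and 17.8 CPM in the WT2 libraries and 14.5, 10.7 and 11.7 CPM in the WT3 libraries (log2FC 0.60 ± 0.093 (SE), adjusted p = 2.71e-04), and Clec7a, which encodes dectin-1, differed by 0.40 and Clec12a by 0.44. Of 19 inflammatory mediators tested, 3 were called in each direction. The 3 toward WT3 became 1 with DESeq2, 1 without WT2 library c or WT3 library a, and 5 without WT3 library c. Ptgs2, the inducible cyclooxygenase, had 4.28, 3.66 and 5.67 CPM in the WT2 libraries and 2.29, 1.86 and 1.95 CPM in the WT3 libraries (log2FC 1.12 ± 0.18 (SE), adjusted p = 3.80e-04), and Spp1, which encodes osteopontin, had 592, 537 and 686 CPM in the WT2 libraries and 345, 321 and 436 CPM in the WT3 libraries (log2FC 0.73 ± 0.085 (SE), adjusted p = 1.28e-05). Il10, an anti-inflammatory cytokine, was higher in WT3 (log2FC −0.60).

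Of 19 integrin and adhesion genes tested, 7 were called higher in WT3 and 3 higher in WT2, with a median of −0.10. Without WT2 library c or without WT3 library a, 4 were called toward WT3. Among 13 chemokine genes, 3 were called higher in WT2 and 2 higher in WT3, led by Cxcl10 (log2FC 1.14), which lay near 1 CPM or lower and lost its call with DESeq2 and without WT2 library b, WT3 library b or WT3 library c. The list of Fc gamma receptors also holds Fcgrt, which encodes the neonatal Fc receptor and is not an Fc gamma receptor. Of 6 genes of the list tested, Fcgr4 was called higher in WT2 (log2FC 0.24) and Fcgr2b, Fcgr3 and Fcgrt higher in WT3 (log2FC −0.11, −0.11 and −0.26). The calls of Fcgr2b and Fcgr3 were lost without WT2 library b, WT2 library c or WT3 library a, and that of Fcgr3, whose libraries overlapped, also without WT3 library c. Fcgrt kept its call throughout, so that the count toward WT3 was 1 to 3 with 1 library left out. Of 23 glycolysis genes, 2 were called higher in WT2 and 1 higher in WT3.

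The clones could also differ in chromosome content, since whole chromosomes or parts of them are often gained or lost in cultured lines. Over 12198 genes with at least 1 CPM, the median difference of log2(CPM + 0.5), after subtraction of the median of all genes, lay between −0.023 (chromosome 19) and 0.018 (chromosome 16) for the 20 chromosomes made up of the autosomes and X. Only 4 genes placed on chromosome Y reached this level, with a median of −1.47, and of −1.75 over 4 genes after IFNG. The Y genes tested were Mid1-ps1, Gm47283, Gm21860 and Gm21742, which lie between 90753057 and 90844040 (mm10), and all 4 were called higher in WT3 (log2FC −1.93, −0.70, −1.49 and −3.38). Mid1-ps1 is a copy related to the X-linked Mid1, described above and also higher in WT3, so fragments may be split between them. No other Y gene passed the filter on low counts, and whether either clone carries a Y chromosome was not tested. In 252 stretches of 10 Mb with at least 10 genes, the mitochondrial genome being counted among them, the median lay between −0.081 and 0.11. The upper end was that of 24 mitochondrial genes (0.108), and the highest nuclear stretch, on chromosome 6, had 0.106. Of the 252 stretches, 3 held 4 genes called with an absolute log2FC of 1 or more, and the median stretch held 0. In the stretch of chromosome 11 from 60 to 70 Mb they were Hs3st3b1, Myh3 and Acap1, higher in WT2, and Chd3, higher in WT3. In that of chromosome 9 from 80 to 90 Mb, they were 4 of 39 tested genes and included the Bcl2a1 paralogs. These genes were singled out after their values were seen.

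The same clone contrast was available in 6 libraries that the untreated comparison did not use, those given IFNG. Of 13147 genes tested there, 1537 were called (11.7%), 641 higher in WT2 (4.88%) and 896 higher in WT3 (6.82%). Of the 2290 genes called in untreated cells, 2258 were tested after IFNG, and 2075 of these (91.9%) differed in the same direction, compared with 64.4% of the 10646 genes that were not called. Past the threshold in the same direction were 880, and 4 were called in the opposite direction. Across the called genes, the log2FC values of the 2 treatments had a Pearson correlation of 0.93, and across the genes not called of 0.36. The points are genes of the same clones and are not independent. Of the 158 genes with an absolute log2FC of 1 or more, 129 were tested after IFNG, 124 (96.1%) differed in the same direction and 107 were called again. The 5 that changed sign were Angptl6, H2-K2 and 3 predicted genes, and none of them was called after IFNG.

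**Figure D4:**
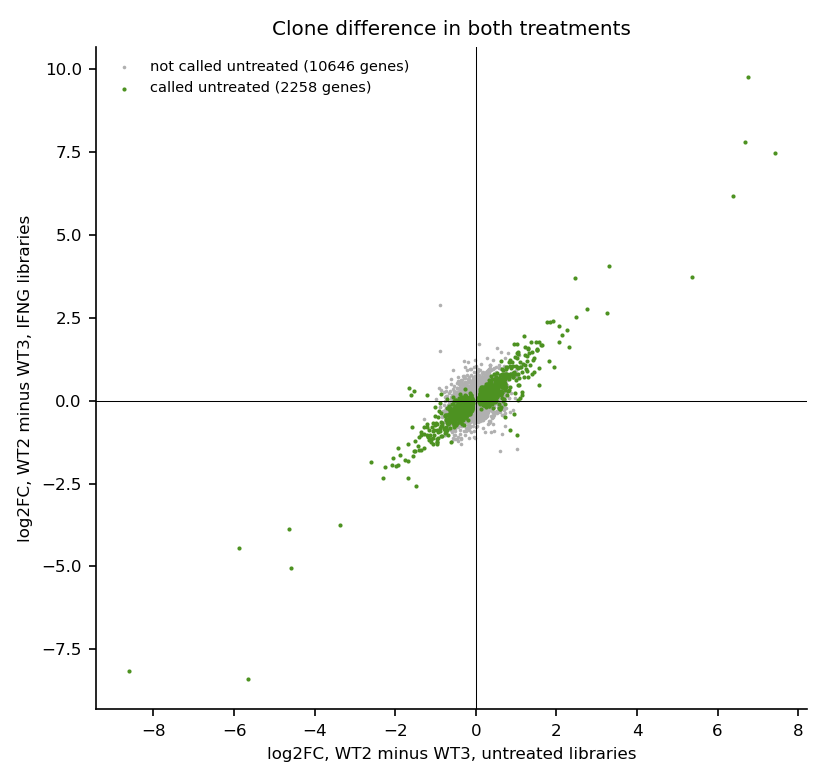
Each point is a gene tested in both treatments, with the log2FC (WT2 minus WT3) of the untreated libraries on the x axis and that of the IFNG libraries on the y axis. Green points are the 2258 genes called in untreated cells, which follow a common line (Pearson r 0.93), and grey points are the 10646 genes that were not called.

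Some genes kept their size closely, and the genes given here were picked after their values were seen. Chd3 differed by −1.54 in untreated cells and by −1.52 after IFNG, Vat1 by 2.74 and 2.77, F13a1 by −2.31 and −2.32, and Mid1 by −1.51 and −1.52. Mean levels of Chd3 after IFNG were 35.3 ± 2.502 CPM in WT2 and 102 ± 1.20 CPM in WT3 (SD, n = 3 each). For C1qa the log2FC values were −0.55 and −0.53, and for Trp53 0.44 and 0.48. Other genes kept their direction but not their size. Neto2 differed by 5.37 in untreated cells and by 3.74 after IFNG, Adgre1 by 1.25 and 0.96, and Maf by −0.47 and −0.22. For Clec7a the values were 0.40 and 0.024, and for B3gnt3 they were 2.45 and 3.71. In none of these genes was the clone by treatment term, given below, called. Among the IFNG libraries, WT3 library a stood apart from the other WT3 libraries in its trend over exon length (Pearson r −0.257 with log length), and without it the number of genes called after IFNG was 2269. WT3 library c differed as much from the other libraries of its group over 10113 genes (SD of the log2 difference 0.135, against 0.134 for library a and 0.107 to 0.122 for the other IFNG libraries of both clones). In Lars2, which encodes a mitochondrial leucyl-tRNA synthetase, libraries a, b and c of WT3 had 3629, 2720 and 1038 CPM. The counts placed on Mir6236 (5.34, 2.67 and 0.597 CPM) and AY036118 (25.2, 15.3 and 6.74 CPM) fell in the same order. Which transcripts these fragments came from was not tested. The number called was 984 without WT3 library c, 761 without WT3 library b, and 1017, 1030 and 960 without WT2 library a, b and c.

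The interferon-stimulated genes did not keep their direction as a list. After IFNG, 49 members were tested, of which 12 were called higher in WT2 and 10 higher in WT3, with a median log2FC of −0.017, against 24 and 0 of 42 before. Of the 24 called in untreated cells, 8 were called higher in WT2 after IFNG and 1 higher in WT3. Oasl1 kept its direction, with 14.6, 16.6 and 16.9 CPM in WT2 and 2.36, 2.21 and 3.28 CPM in WT3 (log2FC 2.63). Ifi44 did not differ past the threshold, with 160.3, 162 and 153 CPM in WT2 and 152, 179 and 179.7 CPM in WT3 (log2FC −0.094, adjusted p = 0.326, edgeR). The test of the difference itself, the clone by treatment term over 12 libraries, called 19 of 13586 genes (0.14%). Of 49 tested members of the list, 45 had a negative term, meaning a difference that moved toward WT3 after IFNG, with a median of −0.30, compared with 46.5% of all genes. The term was called for 5 of the 49 members, 4 of them among the 24 called in untreated cells. Other lists called in WT2 alone when untreated also changed after IFNG. Of 10 tested C-type lectins of the chromosome 6 cluster, 1 was called in each direction. Of 22 genes of MHC class I presentation, 0 were called higher in WT2 and 1 higher in WT3. Ribosomal protein genes gave 12 of 41 and oxidative phosphorylation genes 4 of 29 higher in WT2, with none higher in WT3. No term was called in any of these lists.

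**Figure D5:**
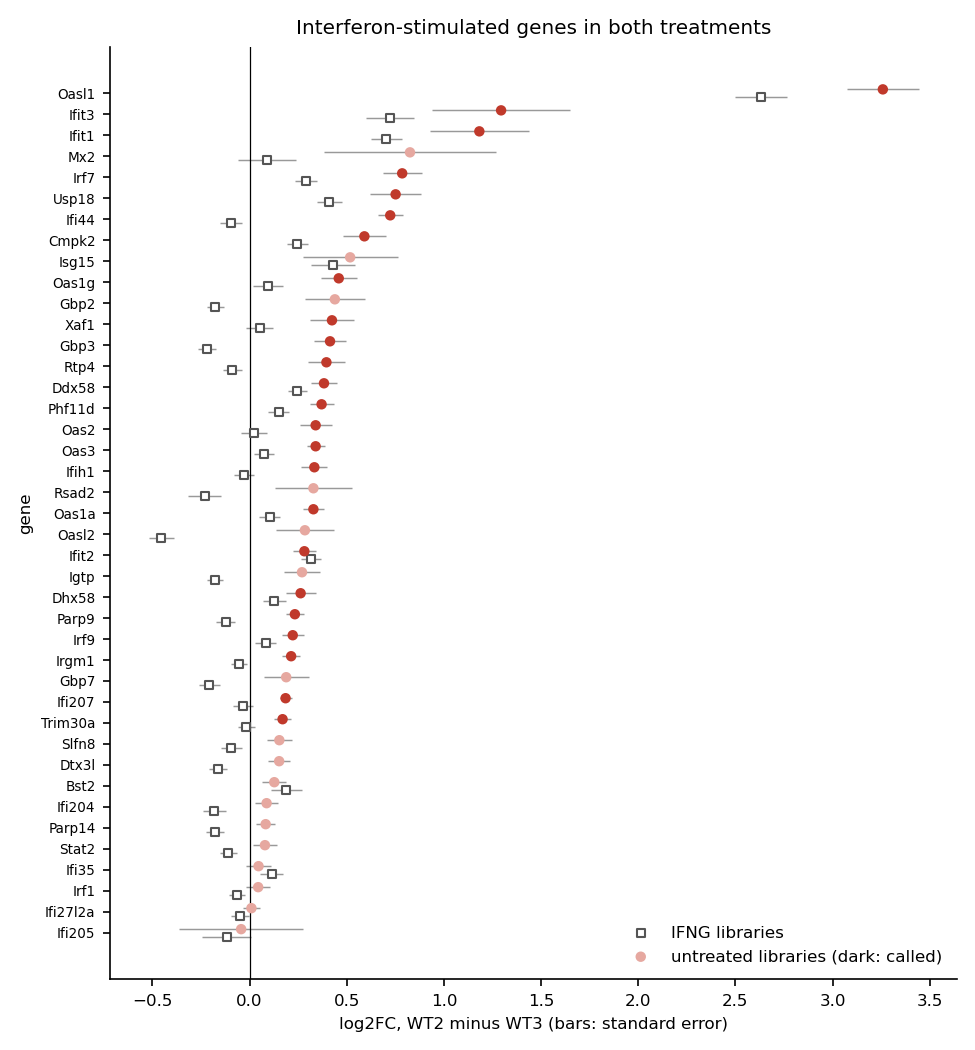
The log2FC (WT2 minus WT3) of 41 of the 42 interferon-stimulated genes tested in untreated cells, ordered by it, with bars for the standard error. Filled circles are the untreated libraries (dark where called) and open squares the IFNG libraries. The circles lie to the right of 0 in every plotted gene but Ifi205, and the squares are spread around 0 (median −0.02).

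The clone WT1 took no fixed place beside the other clones. Among the 158 genes called with an absolute log2FC of 1 or more, the WT1 mean lay between those of WT2 and WT3 in 61, above both in 55 and below both in 42. It was nearer to WT2 in 87 genes and nearer to WT3 in 71. Over all 13310 genes tested, it lay between them in 1966, above both in 5823 and below both in 5521.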

How the data were processed

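RNA-seq libraries of poly(A) RNA were read from a deposited table of raw fragment counts per gene. Per the labels and file headers, the authors used BBDuk for trimming and HISAT2 2.1.0 for alignment to the mm10 genome, kept uniquely aligned fragments, merged technical replicates with SAMtools 1.10 and counted fragments over exons, reverse-stranded, with featureCounts 1.6.2, so that a fragment over overlapping genes was counted for each. The file header names a Gencode annotation and the methods a RefSeq one. The deposited counts of the 12 WT2 and WT3 libraries were identical in the table of all wild-type clones and in those of each clone, from which the clone of each column was taken. Labels state more than 1 RNA input and adapter kind without assigning them to libraries, so such a batch could not be checked.

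Counts were filtered with filterByExpr, normalised by TMM and tested with edgeR 4.0.16 (quasi-likelihood, R 4.3.3), on the 6 untreated libraries and separately on the 6 IFNG libraries, and for the clone by treatment term on all 12. Standard errors are the log2FC divided by the root of the F statistic. Fits were tested on simulated data. Genes were assigned to 48 lists, and the members and lists were chosen with earlier results of these data known. Named genes, leaving out bare Gm and Rik names, were the 12 with the largest absolute log2FC per direction among called genes at 1 CPM or more in the higher clone, the 5 per direction at 50 CPM or more, up to 4 called members per list, genes at 1 CPM or more in a clone and at most 0.05 CPM in the other, Dicer1 and lineage markers. Other genes named from the lists, and Mgl2, Mid1, Slpi, Lars2, Mir6236, AY036118, the Y genes, Bcl2a1a, Angptl6 and H2-K2, were chosen after their values were seen. Alternatives were DESeq2 1.42.0, other normalisations and filters, fits over 9 and 18 wild-type libraries, thinning to one total, leaving out each library and, added after the data were seen, length-trend offsets. DESeq2 kept its default filter, so that a gene with few counts could be left without an adjusted p and was then counted as not called. Some genes are not reported here.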

Additional observations from a re-analysis of the deposited data

Results flagged for a closer look

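The WT2 to WT3 difference changed with IFNG in 17 genes other than predicted ones, by the edgeR test of the clone by treatment term (adjusted p between 2.78e-04 and 0.0443). The term is the log2FC (WT2 minus WT3) after IFNG less that in untreated cells, from the joint fit of 12 libraries. These genes were singled out after their values were seen. The number of called terms was 7 to 178 when 1 library was left out.

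The term was negative in most of them. It was −0.80 for Ifi44, where mean levels were 22.4 ± 0.659 and 13.7 ± 0.431 CPM (WT2 and WT3, SD, n = 3 each) untreated and 159 ± 4.68 and 170 ± 15.9 CPM after IFNG. Guanylate-binding protein Gbp3 had −0.62, with 12.4 ± 0.0733 and 9.32 ± 0.594 CPM untreated and 271 ± 7.99 and 316 ± 17.6 CPM after IFNG. The other called members of the interferon-stimulated list had −0.47 (Rtp4), −0.44 (Igtp) and −0.34 (Parp9). Genes outside that list had −0.70 (Jade3), −0.57 (Enc1), −0.54 (Rp2), −0.52 (Fchsd2), −0.49 (Epsti1), −0.47 (Ifi47), −0.46 (Ifi203), −0.43 (Gsap) and −0.33 (Bmp2k). Ifi203, Igtp and Ifi47 share exon sequence with Mndal, Irgm2 and Olfr56.

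Among the genes outside the list, mean levels were also higher after IFNG in both clones in Enc1, Gsap, Bmp2k, Ifi47, Ifi203, Fchsd2 and Epsti1. Ifi47 had 7.80 and 5.49 CPM (WT2 and WT3) untreated and 312 and 307 CPM after IFNG. Ifi203 had 81.7 and 65.9 CPM untreated and 710 and 794 CPM after IFNG. Fchsd2 had 18.2 and 19.2 CPM untreated and 61.6 and 93.9 CPM after IFNG. Epsti1 had 12.3 and 8.71 CPM untreated and 37.1 and 37.3 CPM after IFNG. Jade3 had 9.14 ± 0.527 and 8.71 ± 0.640 CPM untreated and 9.50 ± 0.820 and 15.02 ± 0.561 CPM after IFNG. Rp2 had 53.6 ± 1.98 and 51.3 ± 0.564 CPM untreated and 55.9 ± 3.20 and 78.2 ± 5.75 CPM after IFNG. In Jade3 and Rp2 the WT2 means of both treatments lay close together, and the WT3 mean was higher after IFNG. Positive terms were 0.28 (Ets2), 0.35 (Tbk1) and 0.76 (Cytip). Cytip had 26.5 ± 1.68 and 27.01 ± 2.33 CPM untreated and 14.8 ± 0.666 and 8.85 ± 1.38 CPM after IFNG. Tbk1, a kinase upstream of interferon production, had 81.7 ± 1.95 and 85.6 ± 1.81 CPM untreated and 104 ± 1.95 and 86.4 ± 3.64 CPM after IFNG.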

How the results depend on the processing

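No paired analysis was possible because the library columns carry no replicate number, so the replicate block was not run. Main counts were 2290 called untreated (1200 higher in WT2, 1090 in WT3). DESeq2 called 1464 (761 and 703), 1460 of which were among the 2290, and the fit over 9 untreated wild-type libraries 1394 (671 and 723), that over 18 libraries 930 (418 and 512). Requiring an absolute log2FC of 1 or more left 158 (81 and 77). Leaving out 1 library gave 1339 to 2215 (680 to 1182 and 649 to 1033), lowest without WT2 b. After IFNG, leaving out 1 library gave 761 to 2269 of 1537 (325 to 1016 higher in WT2 and 436 to 1253 in WT3), highest without WT3 a and lowest without WT3 b. Terms of clone by treatment numbered 46 with DESeq2 (7 and 39) and 132 without a filter (49 and 83), 25 toward WT3 with at least 10 counts in every library, and 7 to 178 with 1 library left out (1 to 84 and 5 to 94). The highest chromosome median was 0.010 without centring and 0.014 to 0.024 with a library left out, and the lowest −0.024 to −0.013. Genes not called that changed sign were Cytip (−0.053 to 0.052 with a library left out, 0.036 without WT2 a, 0.0013 with length offsets) and Fcgr1 (−0.056 to 0.026, 0.018 without WT2 c). Of 206 named genes, 189 were called, 116 of these under every alternative that gave them a value (13 or 14), and none of the called reversed. Of 1344 recomputed list counts, 1126 stayed within 1.5 times. The cause of these changes was not tested.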
